A study of Drosophila melanogaster with 32 samples.

Results

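A set of 32 genes of meiosis and oocyte fate was followed in fluorescence-sorted cells of the Drosophila melanogaster larval ovary. The set was taken by FlyBase symbol from 16257 genes counted, and every one of the 32 had a row. It holds 4 synaptonemal complex genes, 4 genes of meiotic cohesion, 2 of double-strand break formation, 3 RING finger genes, 4 recombination repair genes, 7 genes of crossover resolution and the MCM-like complex, 2 checkpoint and helicase genes, 3 of the meiotic division and 3 of oocyte specification. Germ line cells were sorted from ovaries carrying nos:GAL4 (with UAS-Dcr-2 in the same stock), UAS GFP and either hpo RNAi or yki RNAi. Somatic cells were sorted from ovaries carrying bab:GAL4, UAS GFP and the same hairpins. Ovaries were taken at 120 hours after egg laying (late, labelled as white pupae), 96 hours (mid) or 72 hours (early, both labelled as instar III larvae). These times span terminal filament formation, in which somatic cells stack into the structures that organise the future niches. The germ line groups were late and mid hpo RNAi and late and mid yki RNAi, and the somatic groups were hpo RNAi and yki RNAi at early, mid and late, each with 3 libraries that the series describes as biological replicates. The 2 early germ line samples were not analysed here. All groups carry a knockdown, so untreated cells enter no comparison, and each one sets stages, hairpins or cell types against each other. Germ line and somatic libraries differ by driver, and only the germ line driver stock carries UAS-Dcr-2, so a difference between cell types cannot be told apart from one between drivers.

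In the adult Drosophila ovary, germ line stem cells give daughters that divide with incomplete cytokinesis into cysts joined by ring canals. Several cells of a cyst begin to assemble the synaptonemal complex, make programmed DNA breaks and repair some of them as crossovers, and 1 of them becomes the oocyte while the others become nurse cells. The larval ovary holds primordial germ cells, the precursors of those stem cells, among somatic cells that build the niche. The Hippo pathway limits growth: the kinase Hippo acts to keep the transcriptional co-activator Yorkie inactive, so hpo RNAi and yki RNAi target opposing steps.

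Library totals ran from 15196721 to 75088407 counts. Transcripts of hpo stood at 5.69 to 18.1 counts per 1000000 counts of the library (CPM) in hpo RNAi germ line and 52.9 to 79.4 CPM in yki RNAi germ line, and at 5.29 to 26.6 CPM in hpo RNAi soma and 72.8 to 129 CPM in yki RNAi soma. Transcripts of yki stood at 9.26 to 15.8 CPM in hpo RNAi germ line and 6.92 to 9.58 CPM in yki RNAi germ line, which overlap, and at 16.5 to 32.9 CPM in hpo RNAi soma and 5.05 to 14.9 CPM in yki RNAi soma. The germ line RNA helicase gene vas ranged over 1541 to 2014 CPM in germ line libraries and 0 to 15.6 CPM in somatic ones. The summed level of 9 germ line markers was 7822 to 10006 CPM in germ line and 960.1 to 2685 CPM in soma, where piwi, which somatic cells of the ovary also express, alone held 942 to 2673 CPM and each of the other 8 at most 25.3 CPM. The summed level of 10 somatic ovary markers was 56.8 to 85.4 CPM in 11 germ line libraries and 220.0 CPM in the other, hpo RNAi mid replicate 1, against 1731 to 4386 CPM in soma. That library is kept below, and the counts that rest on it were also taken without it. Among the 32 genes it was the lowest germ line library for c(3)G, corolla, sunn, rec and mei-41. It was the highest for vilya, spn-B, hdm and nod. The log2 values of single genes include it unless a left-out library is named.

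Every one of the 32 genes was detected in all 12 germ line libraries, at mean levels that spanned from 209.7 to 3.24 CPM per kilobase of exon. The highest 6 levels per kilobase were those of 3 synaptonemal complex genes, 1 meiotic cohesion gene and 2 oocyte factors. The gene c(3)G, which encodes the transverse filament of the synaptonemal complex, led with 209.7 CPM per kilobase (3R, 15789473 to 15792579, here and below from the annotation BDGP6.54). It was followed by cona at 132 and corolla at 88.7 CPM per kilobase, both of the complex's central region, and by sunn at 125 CPM per kilobase, which encodes a meiotic cohesion protein. BicD, a dynein adaptor that carries RNAs into the oocyte, averaged 87 CPM per kilobase, and orb, a cytoplasmic polyadenylation factor that marks the future oocyte, averaged 82 CPM per kilobase. The genes that make the breaks were low: mei-W68, the fly Spo11, averaged 8.26 and its partner mei-P22 3.24 CPM per kilobase. The lowest 4 were mei-P22, spn-D at 3.9, spn-B at 5 and mtrm at 6 CPM per kilobase.

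Within role groups the levels were uneven. Of the 3 RING finger genes, relatives of yeast Zip3 that act at crossover sites, nenya (3R, 27927357 to 27928174) averaged 55.3 CPM per kilobase, vilya (X, 2726678 to 2727568) 22.9 and narya (X, 19475063 to 19476055) 7.96. Of the recombination repair genes, the Rad54 gene okr (2L, 2989594 to 2992759) averaged 39 CPM per kilobase, against 5 for spn-B (3R, 14328051 to 14329608) and 3.9 for spn-D (3R, 27165716 to 27167122). Among the crossover genes, Ercc1, partner of the nuclease mei-9, averaged 38.4, mei-218 36.5 and mei-9 28.4 CPM per kilobase, while mus312, the scaffold of that nuclease, averaged 10.2. The cohesin protector mei-S332 averaged 11.6 CPM per kilobase, against 42.2 for ord and 33 for solo. Of the division genes, sub, a kinesin of the meiotic spindle, averaged 37 CPM per kilobase, against 9.28 for the chromokinesin nod and 6 for mtrm, an inhibitor of Polo kinase.

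Several of these levels share sequence with a neighbour. All exon bases of mei-217 lie in mei-218 on the same strand and cover 79.3% of it, and all those of mus312 lie in CG42307. Same-strand overlap also covers 35.0% of mei-W68 exons (with par-1) and 16.9% of solo exons (with vas). On the other strand, alpha-Man-IIb overlaps 26.6% of rec, Ir54a 20.6% of sub, Bem46 16.7% of okr and NK7.1 14.2% of spn-B. The strand that was counted is not given in the sources used here, so these levels depend on how the authors divided reads between overlapping genes.

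**Figure D1:**
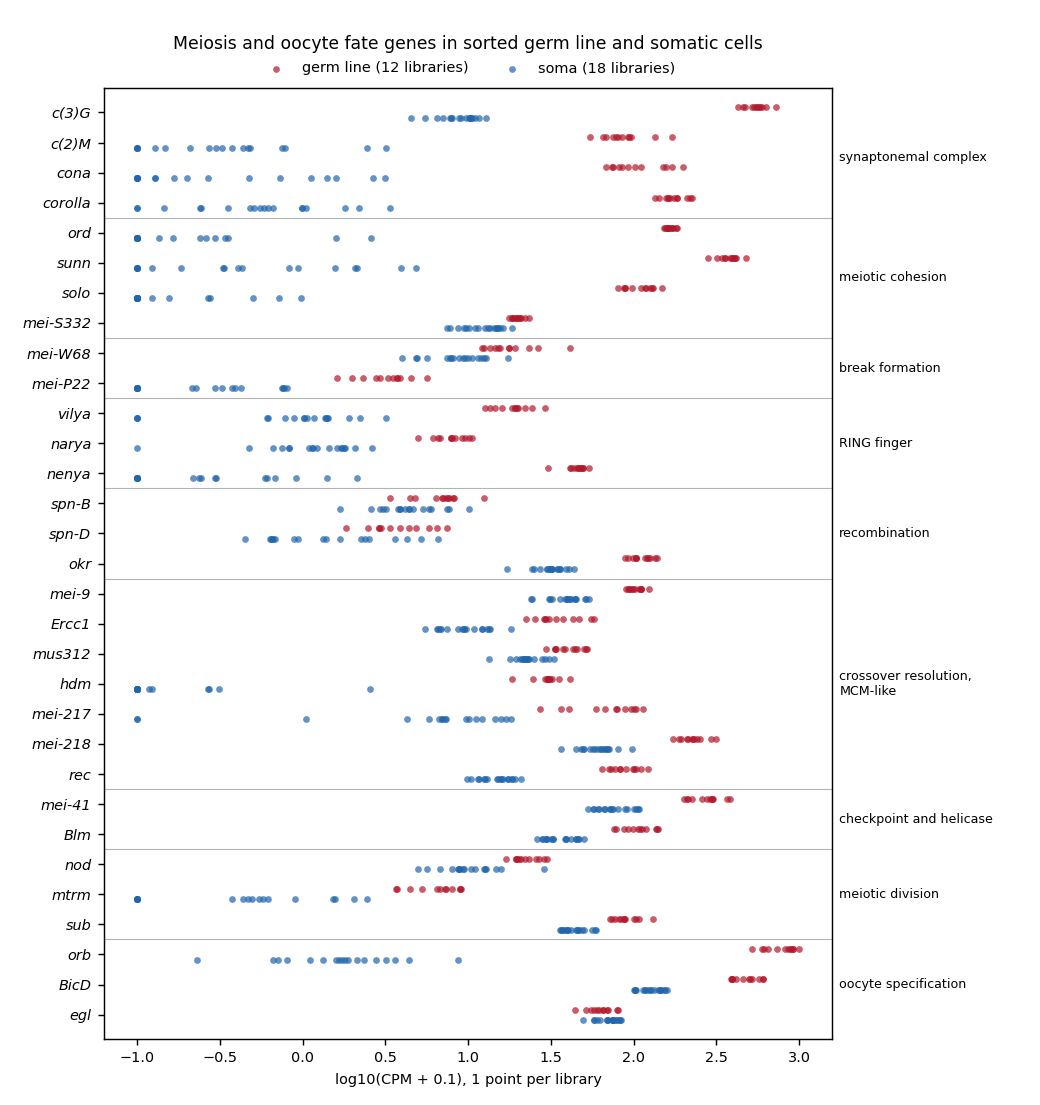
Level of 31 of the 32 genes in each library, as log10(CPM + 0.1), with 12 germ line libraries in red and 18 somatic libraries in blue; genes are grouped by role. The germ line points of c(3)G lie at 428 to 728 CPM and its somatic points at 4.41 to 12.6 CPM, while for egl, at the bottom, the ranges 44.3 to 80 and 49 to 83.7 CPM overlap.

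The spread across the 12 germ line libraries differed between genes. The coefficient of variation of a gene over all 12 libraries, stages and hairpins together, ran from 5.64% for ord to 43.4% for mei-W68, with a median of 19.2%, against a median of 26.3% over the 9471 genes that had at least 1 CPM in at least 3 germ line libraries. The cohesion gene ord had 161, 155 and 152 CPM in late and 161, 182 and 159 CPM in mid hpo RNAi germ line, and 179, 164 and 171 CPM in late and 168, 159 and 172 CPM in mid yki RNAi germ line. Its lowest and highest libraries were 152 and 182 CPM. For mei-W68 the values were 12.3, 13.5 and 15 CPM in late and 17.6, 15.5 and 14.5 CPM in mid hpo RNAi germ line, and 17.5, 26.3 and 23.3 CPM in late and 19, 41.3 and 12.1 CPM in mid yki RNAi germ line. One mid yki RNAi library was far above the other 2 of its group, and the late hpo RNAi libraries all lay below the late yki RNAi ones.

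The first question was whether the set moved between the mid and late stages in germ line cells. None of the 32 genes passed the test in hpo RNAi, in yki RNAi or in the average of both, with edgeR's quasi-likelihood test at a Benjamini-Hochberg adjusted p under 0.05 over 10717 genes. DESeq2 also called 0 of the 32 in each. Over all genes tested, 0.0% were called in hpo RNAi, 0.0187% in yki RNAi and 0.149% in the average, so few genes of any kind passed. At an unadjusted p under 0.05, 3 of the 32 stood out in hpo RNAi, 3 in yki RNAi and 6 in the average, against 6.14%, 5.63% and 8.76% of all genes. The median log2 change of the 32 was 0.14 in hpo RNAi, 0.01 in yki RNAi and 0.02 in the average, and that of all genes was 0.00, -0.04 and -0.02. Here as elsewhere in these sorted bulk libraries, fewer cells of a type and less RNA per cell cannot be told apart.

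The intervals say how large a change these 12 libraries leave possible. The median distance from a gene's estimate to either bound of its 95% interval was 0.44 on the log2 scale for a single hairpin and 0.31 for the average. For ord the average change was -0.07 (95% interval -0.26 to 0.12) and for mei-9 it was -0.01 (-0.24 to 0.22). For low genes the range was wider: mei-P22 gave an average over both hairpins of -0.13 (-1.02 to 0.76). It held 341 counts in late and 373 in mid hpo RNAi libraries. Its yki RNAi libraries held 78, 45 and 64 counts in late and 94, 83 and 229 in mid. For spn-D it was -0.39 (-1.22 to 0.45).

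**Figure D2:**
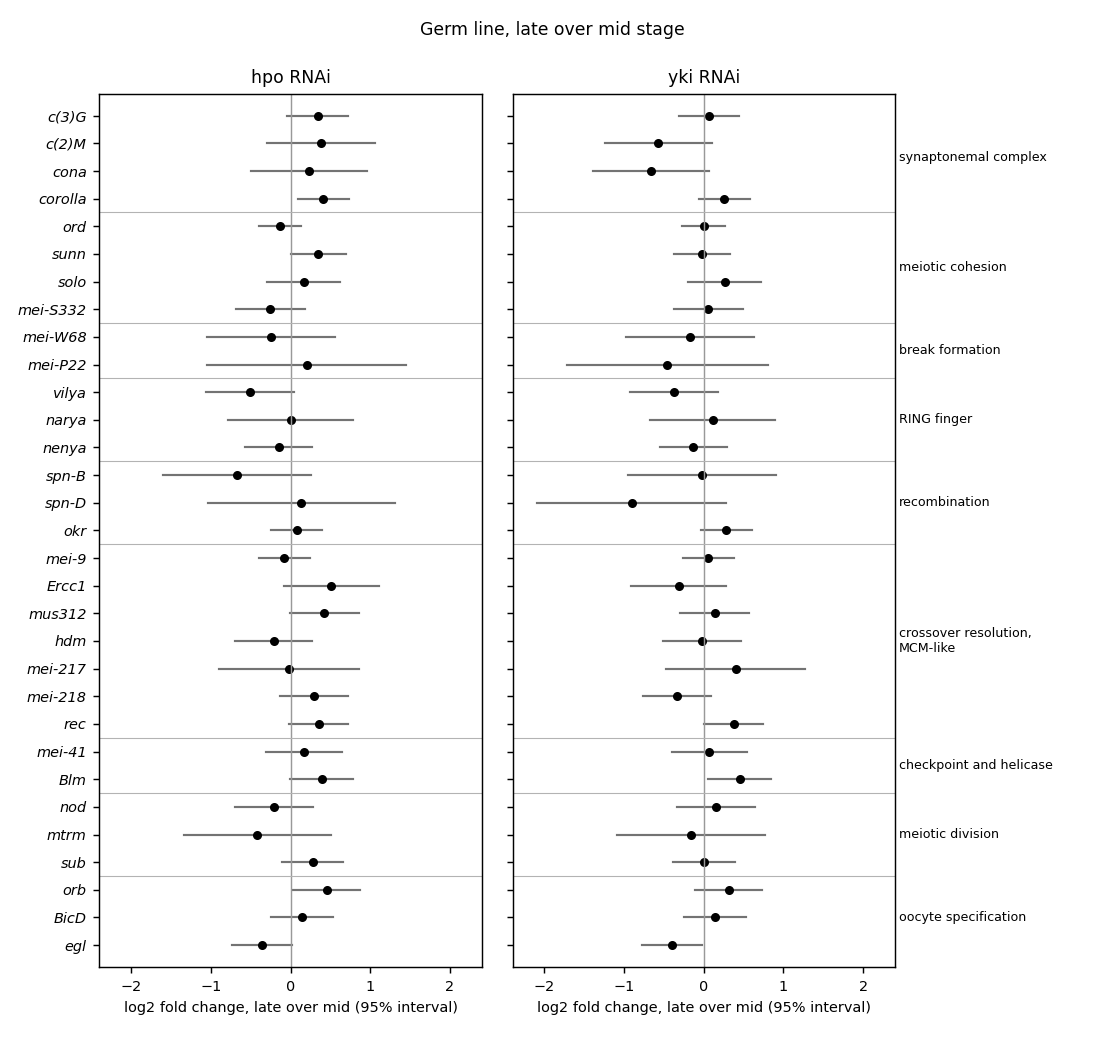
Late over mid log2 fold change of 31 of the 32 genes in hpo RNAi (left) and yki RNAi (right) germ line, with 95% intervals from edgeR; genes are grouped by role. Most points lie within 0.5 of zero, and no gene passed an adjusted p of 0.05 in either panel.

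By role, the synaptonemal complex genes showed the following. The transverse filament gene c(3)G had 628, 728 and 536 CPM in late and 428, 457 and 568 CPM in mid hpo RNAi germ line, and 549, 597 and 556 CPM in late and 470.4, 576 and 521 CPM in mid yki RNAi germ line. Its highest library was a late and its lowest a mid hpo RNAi one, and the stages overlapped under both hairpins (average log2 0.20, SE 0.13, 95% interval -0.07 to 0.47, adjusted p = 0.684). For corolla the values were 226, 209 and 182 CPM in late and 135, 158 and 161 CPM in mid hpo RNAi germ line, and 182, 219.7 and 174 CPM in late and 160.4, 141 and 165 CPM in mid yki RNAi germ line. All late libraries of corolla lay above all mid ones within each hairpin, yet its average change of 0.33 (SE 0.11, 95% interval 0.10 to 0.56) had an adjusted p of 0.34. The other 2, cona and the lateral element gene c(2)M, spread over 68 to 198 and 54.5 to 171 CPM, with averages of -0.22 and -0.09.

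In meiotic cohesion, sunn (3L, 11728348 to 11732016) had 392, 478 and 382 CPM in late and 281, 319 and 358 CPM in mid hpo RNAi germ line, and 342, 411 and 413 CPM in late and 402, 391 and 354 CPM in mid yki RNAi germ line. Its late libraries lay above its mid ones under hpo RNAi and overlapped them under yki RNAi (average log2 0.16, SE 0.11, 95% interval -0.08 to 0.41, adjusted p = 0.735). The averages of ord, solo and mei-S332 were -0.07, 0.21 and -0.10 on the log2 scale. That of mei-S332 joined opposite directions, each without overlap. Under hpo RNAi its late libraries (18.2, 20.1 and 18.4 CPM) lay below its mid ones (20.9, 23.3 and 22 CPM). Under yki RNAi its late libraries (20.47, 19.52 and 19.44 CPM) lay above its mid ones (18.4, 17.56 and 19.35 CPM).

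For break formation the average change of mei-W68 was -0.21 (95% interval -0.78 to 0.36). The RING finger gene nenya had 30.3, 53.8 and 40.9 CPM in late and 41.7, 46 and 47.7 CPM in mid hpo RNAi germ line, and 48, 43.5 and 45.6 CPM in late and 46.4, 49.4 and 49.1 CPM in mid yki RNAi germ line. Its highest and lowest germ line values were both in the late hpo RNAi group (average log2 -0.14, SE 0.14, 95% interval -0.44 to 0.16, adjusted p = 0.833). For vilya the values were 13.5, 18.2 and 19.7 CPM in late and 28.8, 24.3 and 19.1 CPM in mid hpo RNAi germ line, and 19, 12.6 and 14.4 CPM in late and 19.9, 15.9 and 22.1 CPM in mid yki RNAi germ line. The stages overlapped under both hairpins, and vilya had the most negative average of the 32 (log2 -0.44, SE 0.18, 95% interval -0.83 to -0.06, adjusted p = 0.482). For narya they were 6.51, 9.1 and 10 CPM in late and 6.61, 7.78 and 10.5 CPM in mid hpo RNAi germ line, and 9.52, 6.01 and 7.78 CPM in late and 7.83, 4.91 and 8.28 CPM in mid yki RNAi germ line, a low gene whose groups overlapped throughout (average log2 0.05, SE 0.26, 95% interval -0.50 to 0.61, adjusted p = 0.981).

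Among the repair genes, okr had 138, 104 and 126 CPM in late and 122, 121 and 98.6 CPM in mid hpo RNAi germ line, and 104, 134 and 118 CPM in late and 103, 88 and 91.9 CPM in mid yki RNAi germ line. The late yki RNAi libraries of okr lay above the mid ones, and under hpo RNAi the stages overlapped (average log2 0.18, SE 0.11, 95% interval -0.05 to 0.41, adjusted p = 0.671). For spn-B, which acts in the repair of meiotic breaks, the values were 6.25, 3.27 and 8.04 CPM in late and 12.4, 8.07 and 7.26 CPM in mid hpo RNAi germ line, and 7.57, 4.7 and 6.9 CPM in late and 4.34, 7.49 and 6.87 CPM in mid yki RNAi germ line. For spn-D, which acts in the same repair, they were 4.28, 7.3 and 2.77 CPM in late and 5.7, 2.38 and 4.71 CPM in mid hpo RNAi germ line, and 2.78, 1.73 and 2.88 CPM in late and 3.79, 3.28 and 6.38 CPM in mid yki RNAi germ line. The stages of spn-B overlapped under both hairpins, and those of spn-D overlapped under hpo RNAi, while under yki RNAi its late libraries lay below its mid ones. The averages were -0.35 (-1.01 to 0.31) and -0.39 (-1.22 to 0.45), on few counts in both genes.

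In the crossover group, Ercc1 (2R, 14852941 to 14853948) had 37.1, 54.9 and 57.4 CPM in late and 28.8, 30.6 and 42.7 CPM in mid hpo RNAi germ line, and 28.6, 33.8 and 22.2 CPM in late and 25.1, 29.3 and 47 CPM in mid yki RNAi germ line. The stages overlapped (average log2 0.10, SE 0.20, 95% interval -0.33 to 0.52, adjusted p = 0.947). The MCM-like gene rec, whose product works with those of mei-217 and mei-218 to protect crossovers from Blm, had an average of 0.36 (0.10 to 0.62, adjusted p = 0.366), and late stood above mid without overlap under yki RNAi. The averages of the other members of the group lay between -0.12 (hdm) and 0.28 (mus312).

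The damage checkpoint kinase gene mei-41, the fly ATR (X, 16391698 to 16399850), had 298, 277 and 211 CPM in late and 200.1, 259 and 224 CPM in mid hpo RNAi germ line, and 302, 367 and 298 CPM in late and 288, 383 and 213 CPM in mid yki RNAi germ line. The stages overlapped under both hairpins (average log2 0.12, SE 0.16, 95% interval -0.22 to 0.45, adjusted p = 0.893). The helicase gene Blm had the most positive average of the 32 (log2 0.42, SE 0.13, 95% interval 0.14 to 0.69, adjusted p = 0.313), with 139, 108 and 106 CPM in late and 87.1, 99.6 and 77.7 CPM in mid hpo RNAi germ line, and 118, 141 and 136 CPM in late and 91.8, 112 and 75.5 CPM in mid yki RNAi germ line. Late libraries of Blm stood above mid ones without overlap under both hairpins. Of the division genes, sub (2R, 17745500 to 17748078) had 108, 131 and 87.7 CPM in late and 103, 87.9 and 73.6 CPM in mid hpo RNAi germ line, and 72.1, 83.2 and 99.9 CPM in late and 77.3, 81.9 and 87.2 CPM in mid yki RNAi germ line. Its stages overlapped (average log2 0.14, SE 0.13, 95% interval -0.13 to 0.41, adjusted p = 0.816), and nod and mtrm averaged -0.03 and -0.29.

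The oocyte factors did not move as a group. BicD (2L, 17459605 to 17473215) had 457, 505 and 394 CPM in late and 414, 394 and 393 CPM in mid hpo RNAi germ line, and 515, 608 and 575 CPM in late and 495, 606 and 387 CPM in mid yki RNAi germ line. Its stages overlapped (average log2 0.14, SE 0.13, 95% interval -0.13 to 0.41, adjusted p = 0.818). For orb the values were 898, 861 and 824 CPM in late and 592, 611 and 644 CPM in mid hpo RNAi germ line, and 920.2, 995 and 884 CPM in late and 737, 916 and 519.8 CPM in mid yki RNAi germ line. Late libraries of orb stood above mid ones without overlap under hpo RNAi but not under yki RNAi (average log2 0.38, SE 0.14, 95% interval 0.09 to 0.67, adjusted p = 0.406). The gene egl, which encodes the partner of BicD in RNA transport, had 57.2, 61.4 and 44.3 CPM in late and 65.1, 69.7 and 69 CPM in mid hpo RNAi germ line, and 55.1, 64.8 and 51.4 CPM in late and 79.3, 80 and 59.7 CPM in mid yki RNAi germ line. Its late libraries lay below its mid ones under hpo RNAi and overlapped them under yki RNAi (average log2 -0.38, SE 0.12, 95% interval -0.65 to -0.12, adjusted p = 0.341). The test for a different stage effect under the 2 hairpins called 0 of the 32 and 0.0% of all genes in edgeR, and DESeq2 called 0 of the 32. In edgeR 1 of the 32, mei-218, had an unadjusted p under 0.05, beside 3.34% of all genes.

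**Figure D3:**
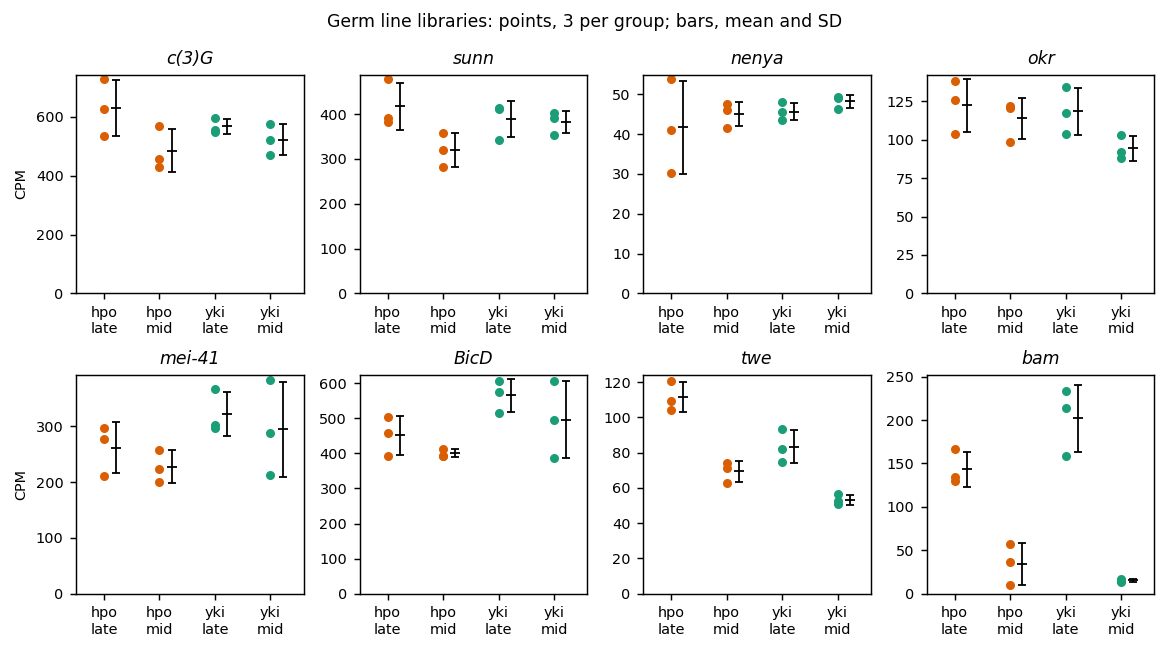
CPM in each germ line library (points, 3 per group) with group mean and SD (bars) for the highest gene per kilobase of 6 role groups and for twe and bam, 2 genes outside the set; hpo RNAi is orange and yki RNAi green. For bam, late libraries reach 233 CPM and mid libraries at most 57.3 CPM, while the 6 genes of the set overlap between stages under at least 1 hairpin.

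The wider pathway was read from 5 further lists. In the average of both hairpins, 0 of 10 other cohesin genes, 0 of 22 other recombination and repair genes and 0 of 20 oocyte transport and polarity genes passed the test between late and mid. Of 17 other meiotic division genes 1 rose, and of 11 genes of the germ cell differentiation switch 1 rose. The first was twe, a Cdc25 phosphatase that acts in meiosis, with 121, 109 and 104 CPM in late and 71.6, 74.1 and 62.5 CPM in mid hpo RNAi germ line, and 74.5, 93.3 and 82.1 CPM in late and 52.8, 50.8 and 56.4 CPM in mid yki RNAi germ line. Late stood above mid without overlap under both hairpins for twe (log2 0.62, SE 0.10, 95% interval 0.41 to 0.84, adjusted p = 0.0258), and the call was kept in 6 of 12 fits that each left out 1 library. It was lost without hpo RNAi late replicate 1, hpo RNAi mid replicate 1 or 4, yki RNAi late replicate 2 or 3, or yki RNAi mid replicate 2 (adjusted p = 0.0636 to 0.084). The second was bam, the factor that commits germ cells to differentiate, with 167, 134 and 129.6 CPM in late and 57.3, 36.2 and 9.66 CPM in mid hpo RNAi germ line, and 233, 214 and 159 CPM in late and 15.1, 16.8 and 13.7 CPM in mid yki RNAi germ line. Late libraries of bam all exceeded mid ones (log2 2.87, SE 0.30, 95% interval 2.23 to 3.52, adjusted p = 0.00174), and the call was kept in 12 of 12 such fits. In yki RNAi alone bam rose by 3.68 (SE 0.44, adjusted p = 0.00884), a call kept in 5 of 6 such fits and lost without yki RNAi mid replicate 2 (adjusted p = 0.134). No list member passed in hpo RNAi alone, where 0.0% of all genes did.

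The next question was whether the hairpin changed the set within the germ line. In hpo RNAi against yki RNAi, 0 of the 32 were called by edgeR late, mid or averaged over stages, and 0 by DESeq2. Of all genes, 0.187% were called late, 0.103% mid and 0.635% in the average. At an unadjusted p under 0.05 there were 2 of the 32 late, 1 mid and 3 in the average, against 7.67%, 6.9% and 11.8% of all genes. The median log2 change of the 32 was 0.06 late, -0.06 mid and 0.03 in the average. In all 5 further lists, 0 genes passed in any of these comparisons. In late germ line, yki transcripts overlapped between the hairpins (9.26 to 10.4 CPM in hpo RNAi, 8.16 to 9.58 CPM in yki RNAi). At mid they did not (10.3 to 15.8 and 6.92 to 8.58 CPM). Without untreated cells, how far yki transcripts were reduced in these libraries cannot be read, which limits what the absence of calls says about loss of Yorkie.

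The genes with the smallest p in single stages differed between stages. In late libraries Ercc1 (values above) was higher in every hpo RNAi library than in any yki RNAi one (log2 0.84, SE 0.28, 95% interval 0.23 to 1.44, adjusted p = 0.484), and in mid libraries the change was 0.01 (95% interval -0.58 to 0.61). For cona the late hpo RNAi values were 102, 169.8 and 149 CPM and the late yki RNAi values 92.4, 68 and 73.6 CPM, without overlap (log2 0.86, SE 0.34, 95% interval 0.13 to 1.59, adjusted p = 0.564). In mid libraries hpo RNAi gave 110.1, 81.2 and 157 CPM and yki RNAi 75.3, 84.4 and 198 CPM, which overlap. The averages over stages furthest from zero with an unadjusted p under 0.05 were -0.67 for mei-W68 (95% interval -1.24 to -0.10, adjusted p = 0.371), 0.42 for Ercc1 (0.00 to 0.85) and -0.32 for BicD (-0.59 to -0.04), whose late hpo RNAi libraries all lay below the late yki RNAi ones. For c(3)G, the most abundant per kilobase, the average was 0.03 (-0.24 to 0.29), and for orb it was -0.17 (-0.47 to 0.12).

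**Figure D4:**
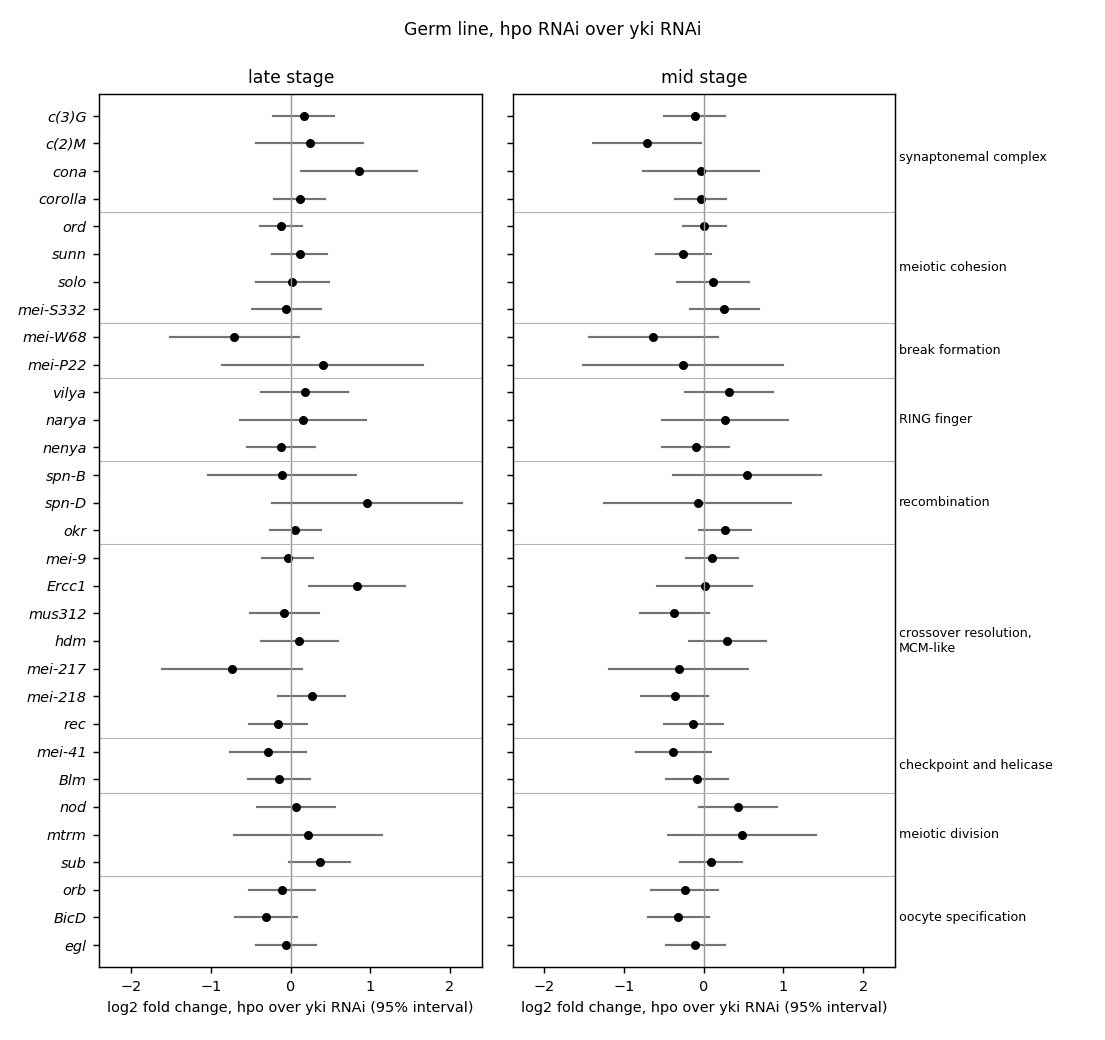
hpo RNAi over yki RNAi log2 fold change of 31 of the 32 genes in late (left) and mid (right) germ line, with 95% intervals from edgeR. The intervals of cona and Ercc1 lie above zero in the late panel and that of c(2)M below zero in the mid panel, and none passed an adjusted p of 0.05.

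Germ line cells differed from somatic cells at most of these genes. Within hpo RNAi, 24 of the 32 were higher and 1 lower in late germ line than in late soma, and 21 were higher and 1 lower at mid. Within yki RNAi, 22 were higher and 1 lower at late, and 22 were higher and 0 lower at mid. Of the 12089 genes tested, 17.6%, 18.5%, 18.3% and 19.4% were higher in germ line in these 4 comparisons and 19.1%, 19.4%, 19.8% and 19.5% lower. The median log2 difference of the 32 was 2.29 in hpo RNAi late, 1.66 in hpo RNAi mid, 1.91 in yki RNAi late and 1.80 in yki RNAi mid, beside 0.12, 0.09, 0.13 and 0.13 for all genes. Without germ line hpo RNAi mid replicate 1, the hpo RNAi mid comparison called 21 higher and 0 lower.

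Higher calls in all 4 comparisons were made for 20 of the 32. The share of all genes higher in all 4 was not counted, but it cannot exceed the 17.6% higher in hpo RNAi late. The 20 genes were sorted into 3 ranges by the size of the difference, and no share of all genes was taken for the ranges. The first held 10 genes with a log2 difference of at least 5 in each comparison: c(3)G, c(2)M, cona and corolla of the synaptonemal complex, ord, sunn and solo of cohesion, the RING finger gene nenya, hdm of the crossover nuclease complex, and orb. Somatic libraries of c(3)G lay at 4.41 to 12.6 CPM, a mean of 1.61% of the germ line mean, and those of orb at 0.13 to 8.61 CPM, 0.275%. The other 8 had somatic means of 0.117% (solo) to 0.802% (nenya) of the germ line mean. Here and below, such somatic means, ranges and counts take all 18 somatic libraries, early ones included. The germ line values come from the 12 mid and late libraries. No count was recorded for solo in 11 of 18 somatic libraries, for hdm in 12 and for ord in 9. For comparison, vas, which was used to check the sort, had a highest somatic value of 15.6 CPM beside a lowest germ line value of 1541 CPM. It shares 16.9% of the exon bases of solo on the same strand, so solo and vas are not independent of each other.

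Where somatic counts were this few, the fitted difference depends on the prior count of the model, so sums of counts are given beside it. These sums pool 3 libraries and leave out the spread between them. For hdm in hpo RNAi mid the sums over 3 libraries were 4032 counts against 1, a ratio of CPM of 3532 with an exact 95% counting interval of 634 to 139558. In yki RNAi mid they were 3398 counts against 1, a ratio of CPM of 3976 with an exact 95% counting interval of 713 to 157088. For cona in yki RNAi late they were 5638 counts against 3, a ratio of CPM of 2131 with an exact 95% counting interval of 729 to 10338. These intervals cover counting error only.

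The second range, set by a highest log2 difference from 3 to 5, held vilya and narya. Their differences over the 4 comparisons were 3.45 to 4.61 and 2.14 to 4.07, so narya also reached into the last range. Their somatic libraries lay at 0 to 3.11 and 0 to 2.51 CPM, beside 12.6 to 28.8 and 4.91 to 10.5 CPM in the germ line. The calls of narya were kept in every fit that left out 1 library in yki RNAi mid, but in 1 of 6 in hpo RNAi late (all but germ line replicate 1 ended it, adjusted p = 0.069 to 0.119). That call was also lost without the filter on low counts (adjusted p = 0.0614). The calls were kept in 3 of 6 in hpo RNAi mid, where germ line replicate 4 and somatic replicates 1 and 2 ended the call (adjusted p = 0.0509 to 0.0661), and in 2 of 6 in yki RNAi late, where germ line replicates 1 and 3 and somatic replicates 1 and 2 did (0.0549 to 0.108). Those of vilya were lost only in hpo RNAi late, where somatic hpo RNAi replicates 2 and 3 each ended the call (adjusted p = 0.0641 and 0.05002).

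A last range held 8 genes with differences under 3: okr, mei-9, Ercc1, mei-218, rec, mei-41, Blm and BicD. Most of these act in DNA repair or its checkpoint, and their somatic means were 16.7% (rec) to 38.3% (mei-9) of the germ line mean. For okr the log2 differences were 1.10 to 1.48 and the ranges 88 to 138 CPM in germ line and 17.1 to 43.7 CPM in soma. For mei-41 they were 1.06 to 1.54, with 200.1 to 383 and 52.7 to 107 CPM. BicD, at 100.0 to 159 CPM, had the highest somatic level per kilobase of the 32 (23.3 CPM per kilobase), and its difference was 1.15 to 1.59. Ercc1 lost its call in hpo RNAi mid without germ line replicate 4 or somatic replicate 1 or 3 (adjusted p = 0.0632 to 0.137), and in yki RNAi late without germ line replicate 2 or somatic replicate 3 (adjusted p = 0.0758 and 0.103).

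Another 6 genes passed in some of the 4 comparisons, among them sub in 3, mei-217 in 2, and mei-S332, mei-P22 and spn-D in 1 each. DESeq2 also called sub in hpo RNAi mid and mei-P22 in both yki RNAi comparisons. RLE size factors and a replicate block in edgeR called sub in hpo RNAi mid too (adjusted p = 0.0457 and 0.0196). For sub the estimate was highest in hpo RNAi late (log2 1.02, SE 0.20, adjusted p = 0.000133), its call in yki RNAi mid was kept in 1 of 6 fits without 1 library, that without germ line replicate 2 (adjusted p in the others 0.0591 to 0.119), and its call in yki RNAi late was lost without germ line replicate 3 (adjusted p = 0.0852). The calls of mei-217, which shares its exons with mei-218, were lost in hpo RNAi mid without germ line replicate 4 or somatic replicate 2 or 3 (adjusted p = 0.0542 to 0.101) and in all 6 such fits in yki RNAi late (0.052 to 0.127). For mei-P22, at 1.52 to 5.57 CPM in germ line and 0 to 0.703 CPM in soma, groups never overlapped, but the call in hpo RNAi late (log2 4.57, SE 1.60, adjusted p = 0.0269) was lost without germ line replicate 4 or any of the somatic replicates (adjusted p = 0.0523 to 0.0976). The call of spn-D in hpo RNAi late (log2 2.69, SE 0.92, adjusted p = 0.023) was lost without germ line replicate 2 or any of the somatic replicates (adjusted p = 0.0696 to 0.0892), and that of mei-S332 in yki RNAi mid (log2 0.72, SE 0.28, adjusted p = 0.0408) without any 1 of its 6 libraries (adjusted p = 0.0538 to 0.129) and without the filter (0.0747).

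The test was passed in no comparison by 5 genes: mei-W68, spn-B, mus312, nod and mtrm. DESeq2 called mtrm in hpo RNAi late, hpo RNAi mid and yki RNAi mid, and mei-W68, mus312 and nod in yki RNAi mid (adjusted p = 0.0221 to 0.049). A replicate block in edgeR called nod in hpo RNAi late and yki RNAi mid and mtrm in yki RNAi mid (adjusted p = 0.0368 to 0.0479). Removing the length trend called mus312 in both late comparisons, and a stricter filter called it in yki RNAi late (adjusted p = 0.0302 to 0.0476). For mtrm the estimates were 2.41 to 3.14 on 3.58 to 9.01 CPM in germ line and 0 to 2.35 CPM in soma, and the libraries did not overlap (hpo RNAi late 95% interval 0.15 to 6.12). For spn-B, 13 of 18 somatic libraries reached the lowest germ line value, and the estimates were 0.01 to 0.45. For mei-W68 they were 0.08 to 1.10, on somatic values of 3.89 to 17.3 CPM.

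The gene egl was the exception in direction. It fell below soma in hpo RNAi late (log2 -0.98, SE 0.16, adjusted p = 1.36e-05), hpo RNAi mid (log2 -0.49, SE 0.16, adjusted p = 0.0155) and yki RNAi late (log2 -0.80, SE 0.16, adjusted p = 0.000185), while in yki RNAi mid the estimate was 0.03 (95% interval -0.29 to 0.35). The call in hpo RNAi mid was lost without germ line replicate 1 (adjusted p = 0.0662) or somatic replicate 2 (adjusted p = 0.0775), and with RLE size factors (adjusted p = 0.0593). In soma egl ran over 49 to 83.7 CPM, a mean of 112% of the germ line mean. Its transport partner BicD was thus higher in germ line at both stages and under both hairpins, and egl in none of them.

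**Figure D5:**
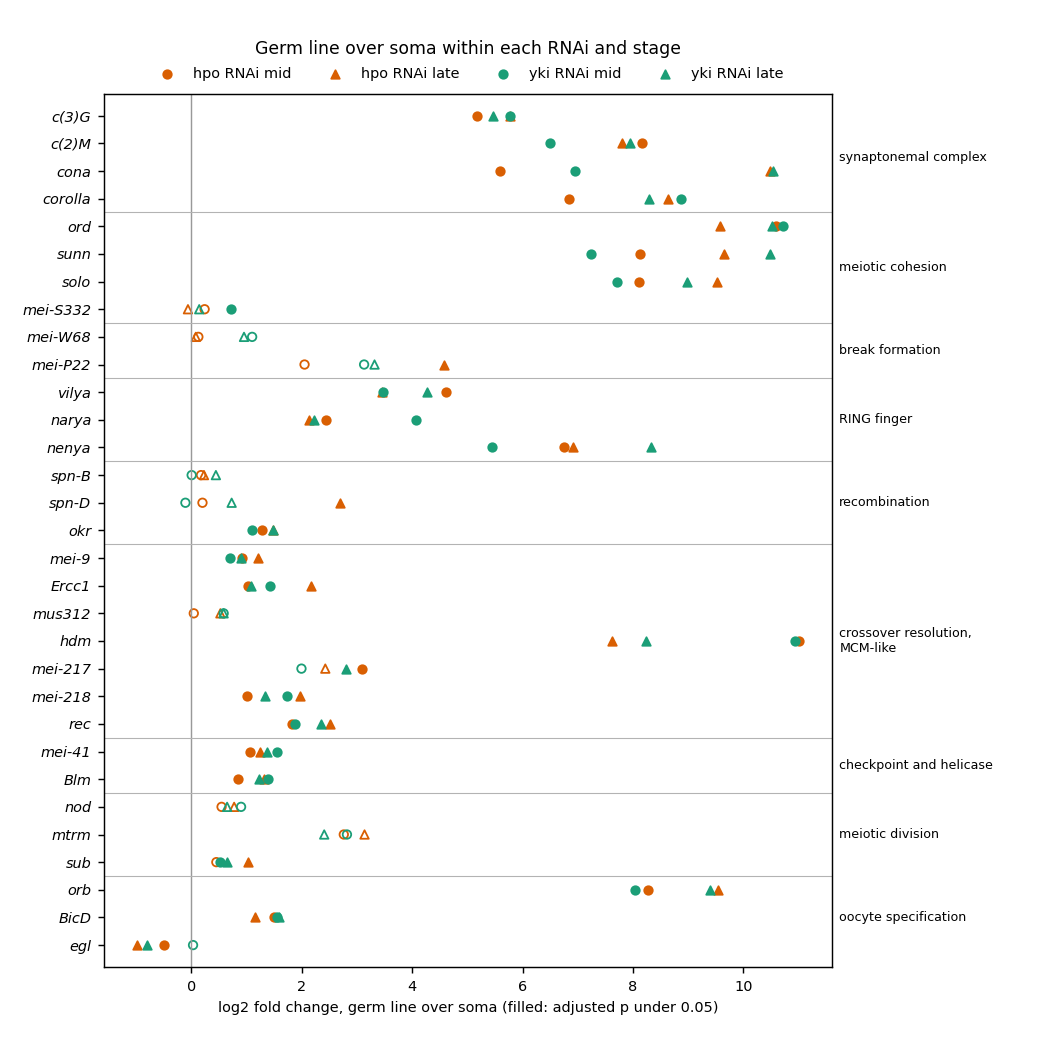
Germ line over soma log2 fold change of 31 of the 32 genes in 4 comparisons: hpo RNAi in orange, yki RNAi in green, late as triangles and mid as circles, filled where the adjusted p was under 0.05. The genes from c(3)G to solo lie beyond 5, okr between 1.10 and 1.48, and egl at or below 0.03.

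The further lists were read in the same 4 comparisons, in the order hpo RNAi late, hpo RNAi mid, yki RNAi late and yki RNAi mid, where 17.6%, 18.5%, 18.3% and 19.4% of all genes were higher. Of 22 recombination and repair genes 18, 12, 15 and 14 were higher, and 1 was lower in each. Of 11 switch genes 8, 9, 8 and 9 were higher, and 1, 1, 0 and 1 lower. Of 17 division genes 8, 7, 10 and 10 were higher, and of 10 cohesin genes 4, 4, 5 and 8, with 0 lower in both lists. The 20 transport and polarity genes were divided, with 8, 8, 8 and 10 higher and 6, 2, 6 and 4 lower. The testis and male marker list and the fat body list also stood higher in germ line. Testis and male markers had summed levels of 58 to 112 CPM against 9.23 to 33 CPM in soma, and fat body markers 19.6 to 44.8 CPM against 0 to 8.95 CPM, and the part of either list in the germ line values was not tested.

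Within soma few of these genes passed a test. Of the 30 of 32 genes that passed the filter on low counts (ord and hdm did not), edgeR called 0 in hpo RNAi against yki RNAi early, mid, late and over all stages, where 2.45%, 2.5%, 1.03% and 5.48% of 10672 genes were called. At an unadjusted p under 0.05 there were 4, 2, 0 and 2 of the 30, beside 20.0%, 12.7%, 5.76% and 18.4% of all genes, and DESeq2 called 1 early (mtrm, at 1.94, 0 and 0 CPM in early hpo RNAi and 0 in each early yki RNAi library) and 0 in the others. From early to mid, 0 of 30 were called in the average of both hairpins, beside 3.5% of all genes, with 5 at an unadjusted p under 0.05, beside 17.5%, and 0 by DESeq2.

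Between mid and late soma 2 of the 30 rose, where 27.2% of all genes were called, 15.3% higher and 11.9% lower. BicD had 118, 123 and 101 CPM (hpo RNAi) and 133, 100.0 and 127 CPM (yki RNAi) at early, 113, 102 and 103 CPM (hpo RNAi) and 125, 117 and 152 CPM (yki RNAi) at mid and 147, 159 and 155 CPM (hpo RNAi) and 139, 143 and 144 CPM (yki RNAi) at late. The late values exceeded the mid ones under hpo RNAi and overlapped them under yki RNAi (log2 0.33, SE 0.09, 95% interval 0.13 to 0.53, adjusted p = 0.0127, late over mid). For egl the values were 74.8, 83.7 and 62.8 CPM (hpo RNAi) and 78.4, 57.6 and 69.5 CPM (yki RNAi) at early, 68.9, 75.4 and 68.8 CPM (hpo RNAi) and 49, 57.3 and 59.8 CPM (yki RNAi) at mid and 78.8, 82.2 and 81.1 CPM (hpo RNAi) and 75.1, 74.1 and 75.2 CPM (yki RNAi) at late. Late exceeded mid under both hairpins (log2 0.31, SE 0.11, 95% interval 0.09 to 0.54, adjusted p = 0.0332). The egl call was also lost with RLE size factors (adjusted p = 0.0515) and without the filter on low counts (adjusted p = 0.0586). Taking out the dependence on exon length within each library ended both calls: BicD then had a log2 of 0.07 (adjusted p = 0.614) and egl one of 0.11 (adjusted p = 0.409), and mei-218 was then called lower (log2 -0.59, adjusted p = 0.0123). The egl call was kept in 3 of 12 fits without 1 library (yki RNAi mid replicates 2 and 3 and hpo RNAi mid replicate 2), with adjusted p in the others up to 0.0909, and the BicD call in 12 of 12. Summed hemocyte markers also differed, at 883 to 1764 CPM in late soma and 34.9 to 156 CPM in mid soma, and their part in these values was not tested.

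The stage effect itself differed between cell types at 2 of the 32 genes, beside 9.78% of 12089 genes. For egl the late over mid change in germ line minus that in soma was -0.66 on the log2 scale (95% interval -0.98 to -0.34, adjusted p = 0.0061), a call kept in 24 of 24 fits without 1 library and, at -0.58, with the length trend removed. Removing that trend also called orb, which the main fit did not (log2 1.58, adjusted p = 0.0465). For cona the difference was 4.24 (95% interval 1.73 to 6.74, adjusted p = 0.0245). It rests on the soma, where cona ran over 3.07, 0.0278 and 2.56 CPM (hpo RNAi) and 1.48, 0.634 and 0 CPM (yki RNAi) at mid and 0.0999, 0 and 0.169 CPM (hpo RNAi) and 0.0286, 0 and 0.0681 CPM (yki RNAi) at late, and the call was lost without somatic hpo RNAi late replicate 2, hpo RNAi mid replicate 3, yki RNAi late replicate 1 or yki RNAi mid replicate 1 (adjusted p = 0.0603, 0.0519, 0.0552 and 0.0611).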

How the data were processed

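Poly-A RNA of sorted cells was sequenced as 50 bp single end reads. Per the submitters' processing notes, bcl2fastq 2.2, STAR 2.7.6a, RSEM 1.3.3 and DESeq2 1.26.0 were used, with no role given for each. The authors deposited estimated counts per gene (expected counts), not normalized, of which 86.5% were whole numbers within 1e-06. Genome build, annotation and strand are not given in the sources used here. Estimates were rounded to whole numbers. Another 18 columns that belong to no sample here were not used, and 2 early germ line samples were not analysed here. CPM are counts per 1000000 of each library's total, without further scaling, and CPM per kilobase divide by exon length in BDGP6.54, which matched 16206 of 16257 genes by identifier.

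Tests used edgeR 4.0.16 in R 4.3.3 (TMM scaling, filterByExpr with a minimum count of 10, quasi-likelihood F test on group means, Benjamini-Hochberg adjustment over all genes of the fit, threshold 0.05). Germ line comparisons used 12 libraries, somatic ones 18, and those across cell types all 30. The SE is the size of the log2 fold change divided by the square root of F, and 95% intervals use the t distribution with the fit's degrees of freedom. The procedure was tested on simulated data. Alternatives were DESeq2 1.42.0, RLE size factors, no filter, a filter of 5 CPM in 3 libraries, the compared libraries alone, a replicate block, removal of each library's trend over exon length, and leaving out each library in turn. Counting intervals cover counting error only, at a level of 95%.

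The 32 genes and the further lists were chosen with earlier results of these data known. Full statistics were planned for genes past the threshold in a germ line comparison, the highest gene per kilobase of each role group, genes of the repair group and the RING finger genes, plus up to 2 called genes per direction of the further lists. Other genes named with values, such as corolla, Blm, orb and egl, were chosen after their values were seen. The results of 1 of the 32 genes are not reported here, and the counts and medians over the set include it. P-values measure the spread between libraries that the series calls biological replicates.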

Additional observations from a re-analysis of the deposited data

Results flagged for a closer look

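For 2 of the 32 genes the change between late and mid differed between germ line and soma in a test of that difference itself (edgeR, adjusted over 12089 genes). For egl the late over mid log2 change, germ line minus soma and averaged over both hairpins, was -0.66 (SE 0.16, adjusted p = 0.0061). Within cell types its average change was -0.38 in germ line and 0.31 in soma. For cona the difference was 4.24 (SE 1.22, adjusted p = 0.0245), with -0.22 in germ line and -4.27 in soma. Among the mid and late somatic libraries, hpo RNAi late replicate 2, yki RNAi mid replicate 3 and yki RNAi late replicate 2 held 0 counts of cona. Its fitted size therefore depends on the prior count. Both comparisons use the same somatic libraries, in which the hemocyte marker sum was 883 to 1764 CPM late and 34.9 to 156 CPM mid, and its part in either value was not tested.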

How the results depend on the processing

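The counts of 0 of 32 in every germ line comparison of stages or hairpins and in their interaction held in every alternative run, including each left-out library and the replicate block. In germ line against soma, the members called numbered 21 to 25 (hpo RNAi late), 19 to 22 (hpo RNAi mid), 20 to 21 (yki RNAi late) and 20 to 22 (yki RNAi mid) with 1 library left out, and 24, 23, 23 and 24 with the replicate block. The block ended the calls of narya and mei-P22 in hpo RNAi late (adjusted p = 0.0594 and 0.0656) and of twe in late against mid (0.0804). With the length trend removed, mus312 was called in hpo RNAi late and yki RNAi late (0.0302 and 0.0476). In soma, DESeq2 called 1 gene in hpo RNAi against yki RNAi early. For mid against early, 1 gene (mei-41) was called with the length trend removed, and 0 to 1 with 1 library left out (mtrm, without hpo RNAi early replicate 1). For late against mid the count of 2 became 4 in DESeq2 (cona and spn-D lower), 1 with RLE size factors and 1 without the filter (egl lost in both), 1 with the length trend removed (mei-218) and 3 with the replicate block (cona lower), and 1 to 2 with 1 library left out. The stage difference between cell types had 1 to 3 calls with 1 library left out, 2 with the replicate block and 3 with the length trend removed. The gene added in that last fit was orb (log2 1.58, adjusted p = 0.0465). Leaving out somatic hpo RNAi mid replicate 1 also called orb (log2 1.52, adjusted p = 0.0406). Deviations correlated at a median of 0.075 for 8 same-numbered germ line pairs (others -0.011) and -0.01 in soma (0.008). So few cannot exclude pairing.

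Over all genes, DESeq2 and the fit without a filter called more than the reported counts in the germ line: 79 and 20 against 0 (late against mid, hpo RNAi), 37 and 9 against 2 (yki RNAi), 187 and 51 against 16 (average), 113 and 56 against 20 (hpo RNAi against yki RNAi, late), 88 and 26 against 11 (mid) and 220 and 110 against 68 (average). In soma, DESeq2 called 874 against 261 early, 580 against 267 mid, 204 against 110 late, 1045 against 585 on average (hpo RNAi against yki RNAi) and 872 against 373 between mid and early, where the replicate block called 245. In the germ line interaction DESeq2 called 12 against 0. Late against mid, the average had 26 calls with the length trend removed against 16, yki RNAi had 1 against 2 with the stricter filter, the replicate block or only the compared libraries, and hpo RNAi had 1 against 0 with the block or with the length trend removed. With only the compared libraries, hpo RNAi against yki RNAi had 37 calls against 20 late and 6 against 11 mid. Of the calls, those higher were 7 of 23 with RLE size factors against 7 of 16 reported (late against mid, average), 1 of 3 with the length trend removed against 1 of 2 (yki RNAi), and in hpo RNAi against yki RNAi 3 of 16 and 13 of 27 with these 2 scalings against 6 of 20 late (66 of 113 in DESeq2, 30 of 56 without the filter and 9 of 18 with the block), 2 of 9 and 7 of 15 against 4 of 11 mid, and 50 of 87 with the length trend removed against 31 of 68 on average.

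No value that changed sign had passed the test, before or after. With DESeq2, the log2 value was -0.00457 for c(3)G, germ line hpo RNAi against yki RNAi, average of stages. With RLE size factors, the log2 value was -0.00464 for c(3)G, germ line hpo RNAi against yki RNAi, average of stages. With stricter filter, the log2 value was -0.0142 for c(3)G, germ line hpo RNAi against yki RNAi, average of stages. With length trend removed, the log2 values were 0.0398 for sunn, germ line hpo RNAi against yki RNAi, average of stages, 0.0637 for nenya, germ line late against mid, average of both RNAi, -0.0143 for vilya, germ line hpo RNAi against yki RNAi, average of stages, -0.000172 for narya, germ line hpo RNAi against yki RNAi, average of stages. With replicate block, the log2 value was 0.0413 for spn-D, germ line against soma, yki RNAi mid. With 1 library left out, the ranges were -0.00737 to 0.24 for Ercc1, germ line late against mid, average of both RNAi, -0.0563 to 0.0652 for c(3)G, germ line hpo RNAi against yki RNAi, average of stages, -0.055 to 0.20 for mei-W68, germ line against soma, hpo RNAi late, -0.0695 to 0.50 for mei-W68, germ line against soma, hpo RNAi mid, -0.39 to 0.13 for mei-W68, germ line late against mid, average of both RNAi, -0.0366 to 0.18 for narya, germ line late against mid, average of both RNAi, -0.0449 to 0.52 for spn-B, germ line against soma, hpo RNAi late, -0.15 to 0.60 for spn-B, germ line against soma, hpo RNAi mid, -0.21 to 0.24 for spn-B, germ line against soma, yki RNAi mid, -0.25 to 1.10 for spn-D, germ line against soma, hpo RNAi mid, -0.42 to 0.56 for spn-D, germ line against soma, yki RNAi mid. The cause of these differences was not tested. At this depth mei-P22 held 341 counts in late and 373 in mid hpo RNAi germ line. In yki RNAi germ line its libraries held 78, 45 and 64 counts in late and 94, 83 and 229 in mid. The interval of its average change over both hairpins was -1.02 to 0.76.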

Other observations

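The stage effect differed between germ line and soma at 4 of 22 recombination and repair genes, 2 of 20 transport and polarity genes, 2 of 11 switch genes, 1 of 17 division genes and 0 of 10 cohesin genes, beside 9.78% of all 12089 genes, so over the 5 lists the share called was close to that of all genes. They were bam, gnu, Irbp, Ku80, mms4 and rad50, where late over mid was higher in germ line, and pum, par-6 and tral, where it was lower. Both Ku subunits were among them: Irbp, the fly Ku70, differed by 0.95 (SE 0.16, adjusted p = 0.000156) and Ku80 by 0.80 (SE 0.22, adjusted p = 0.0165) on the log2 scale, each kept in 24 of 24 fits without 1 library. The break repair gene rad50 differed by 0.69 (SE 0.18, adjusted p = 0.012). In germ line, late and mid libraries of Irbp, Ku80 and rad50 overlapped under both hairpins, while in soma late libraries of Irbp and rad50 lay below mid ones under both. The lower calls were less stable, with pum kept in 8, par-6 in 9 and tral in 16 of 24 such fits. These genes were named after their values were seen.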
